A study of Mus musculus with 6 samples.

Results

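The 66 genes described here encode phospholipases A2, cyclooxygenases, lipoxygenases, prostanoid synthases and receptors, epoxide hydrolases, and fatty acid desaturases and elongases. They were taken by symbol from the 24419 genes of the deposited table. Every library came from neuron-enriched cells of the peri-infarct cerebral cortex of male mice, taken 4 days after the middle cerebral artery had been blocked for 60 minutes. The 3 libraries labelled cKO came from mice with the genotype Slc17a7-cre; Slc32a1-cre; Padi4flox/flox, so that Cre is made in neurons that use glutamate or GABA. The 3 libraries labelled control came from Padi4flox/flox mice, which carry the loxP-flanked alleles without Cre. Padi4 encodes peptidylarginine deiminase 4, and the comparison asked which transcripts differ when it is deleted in neurons after stroke. The labels do not say whether each library came from 1 animal, and the p-values cover only how far these libraries spread, which may be technical.

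Phospholipases A2 cut fatty acids such as arachidonic acid out of membrane phospholipids. Cyclooxygenases and terminal synthases turn arachidonate into prostaglandins and prostacyclin, lipoxygenases turn it into leukotrienes and hydroxy fatty acids, and epoxide hydrolases clear its epoxides. Desaturases and elongases build arachidonate and the very long chains of myelin lipids from shorter fatty acids. In ischaemic brain, arachidonate release and induction of the inducible cyclooxygenase are textbook responses to calcium entry and synaptic over-activity.

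The promoters of 3 members are shown because these genes carry the patterns described below: Ptgs2 had the widest range between libraries among members with a mean of at least 50, Ptgds was the most abundant member, and Elovl5 is an elongase shown beside oligodendrocyte markers. The windows run from 250 bases before to 50 after the annotated start and are given 5′ to 3′ on the gene's strand, from RefSeq in build GRCm38.p6, which held entries for 53 of the 66 members. Capitals mark the core of a cyclic AMP response element (TGACGT), an E-box (CACGTG) or an AP-1 site (TGACTCA), searched on both strands.
Ptgs2, chr1:150099781-150100080, plus strand: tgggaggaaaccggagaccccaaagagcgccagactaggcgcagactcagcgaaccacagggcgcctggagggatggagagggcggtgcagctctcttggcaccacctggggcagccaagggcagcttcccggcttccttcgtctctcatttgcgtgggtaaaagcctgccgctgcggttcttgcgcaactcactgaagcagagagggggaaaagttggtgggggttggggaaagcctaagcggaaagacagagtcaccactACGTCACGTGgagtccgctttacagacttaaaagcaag
Ptgds, chr2:25469700-25469999, minus strand: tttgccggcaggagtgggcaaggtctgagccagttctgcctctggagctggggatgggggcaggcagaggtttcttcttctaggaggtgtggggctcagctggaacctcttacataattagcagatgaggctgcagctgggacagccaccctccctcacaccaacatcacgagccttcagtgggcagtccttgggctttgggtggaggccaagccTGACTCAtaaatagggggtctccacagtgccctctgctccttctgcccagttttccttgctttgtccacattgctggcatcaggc
Elovl5, chr9:77917115-77917414, plus strand: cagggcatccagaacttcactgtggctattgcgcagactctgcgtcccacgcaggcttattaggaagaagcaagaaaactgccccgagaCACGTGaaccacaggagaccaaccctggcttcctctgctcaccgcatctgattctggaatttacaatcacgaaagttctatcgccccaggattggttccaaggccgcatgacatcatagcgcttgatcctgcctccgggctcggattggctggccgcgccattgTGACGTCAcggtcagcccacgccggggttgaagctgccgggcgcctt
In the Ptgs2 window the response element core, read on the opposite strand at positions 263 to 268 from the 5′ end, shared its last bases with the E-box at 267 to 272. The Ptgds window held an AP-1 site at 216 to 222, and the Elovl5 window an E-box at 90 to 95 and 2 overlapping response element cores between 254 and 261. The core was present in 4 of 59 windows of members and in 7.51% of all 32851 windows of the same length. The E-box was present in 5 of the 59 and in 7.15% of all, and the AP-1 site in 3 of the 59 and in 5.20% of all. A match describes these letters only.

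Library depth ran from 10094145 to 24056755 reads labelled cKO and from 10638387 to 18502027 labelled control. Replicate 2 of each label had the fewest detected genes, 14042 in the library labelled cKO and 15261 in the library labelled control, against 16818 to 17891 in the other 4. Padi4 had 0, 3 and 12 reads in the libraries labelled cKO and 0 in each labelled control (exact permutation test, two-sided p = 0.4, this design allowing no p below 0.1). The labels do not name the floxed exons, so these reads check the labels neither way, and every direction below is that of the labels. The libraries are labelled as neurons, yet 20 oligodendrocyte markers summed to 15754 to 47659 in those labelled cKO and 28186 to 38852 in those labelled control, while 18 pan-neuronal markers summed to 1873 to 9227 in those labelled cKO and 3257 to 5079 in those labelled control. All markers of both lists had reads. The 11 neutrophil and lymphocyte markers summed to 0.303 to 3.07 in libraries labelled cKO and 1.38 to 4.22 in those labelled control. Of these, Cd3e and Ms4a1, which define T and B lymphocytes, had no reads. Values are the deposited scaled CPM, reads scaled to library size adjusted by a TMM factor for each library. In bulk RNA fewer cells of a type and less RNA per cell cannot be told apart.

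No member passed the test between the labelled groups, which ran across all genes. Of the 66 members, 42 were at 1 or above in 3 or more libraries and were tested, and 0 passed an adjusted p under 0.05 in limma. Over all 14796 tested genes 0 passed, which is 0% of them, with 0 called by edgeR and 1 by DESeq2. At an unadjusted p under 0.05, limma took 0 of the 42 members, against 126 genes or 0.852% of all. At the same threshold edgeR on recovered reads took 1 member, Alox5, against 41 genes higher and 32 lower over all 14796. DESeq2 also took 1, Alox5, against 97 genes higher and 78 lower. The smallest adjusted p of any member in limma was 0.9996. The fitted difference was above 0 for 22 members and below 0 for 20, where 48.0% of all genes were above 0 and 52.0% below. Their median log2 difference was 0.10, against -0.02 over all genes tested. The split and the median turned with 1 library or the filter: 17 above and 25 below with a median of -0.080 without control replicate 2, and 13 above and 16 below with a median of -0.027 over the 29 members left by a filter at 5. Without control replicate 3 it was 27 above and 15 below, with a median of 0.22. Standard errors ran from 0.30 for Fads1 to 1.15 for Ptges, and the difference was smaller than its standard error for 35 of the 42.

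**Figure D1:**
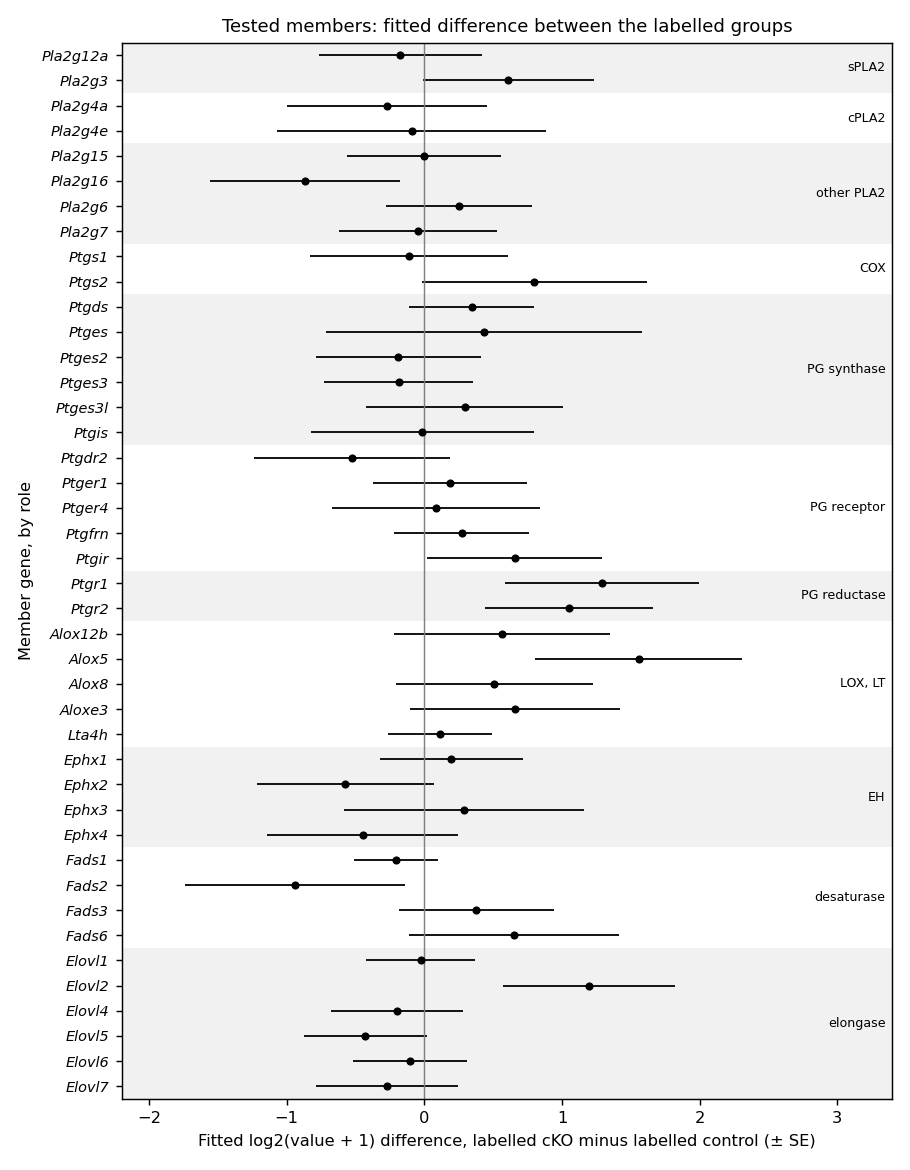
Fitted log2(value + 1) difference for the 42 tested members, as labelled cKO minus labelled control, with bars for the standard error, ordered by role. Differences run from -0.94 for Fads2 to 1.56 for Alox5, and none passed the adjusted threshold.

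Lipoxygenases and prostaglandin reductases were the 2 roles in which every tested member had a positive fitted difference, 5 of 5 and 2 of 2. Over all tested genes 48.0% were above 0, and these roles were singled out after their values were seen. Apart from Alox5, each lipoxygenase or leukotriene enzyme difference was smaller than its standard error. Alox5, the lipoxygenase that starts leukotriene synthesis, had the largest difference of any tested member. Its scaled CPM was 8.64, 30.1 and 4.25 in the libraries labelled cKO, replicates 1 to 3, against 4.52, 2.94 and 1.83 in those labelled control. The groups overlapped, and the highest value, 30.1, came from 1 library, labelled cKO replicate 2. The log2 difference was 1.56 (SE 0.75, adjusted p = 0.9996 in limma), and 0.85 without that library. Alox5ap, the protein that presents arachidonate to this enzyme, did not reach the test. It was at 0.768, 0 and 0.379 in libraries labelled cKO and 1.29, 6.91 and 0.389 in libraries labelled control, so the library highest in Alox5 had no Alox5ap reads. Ltc4s, which makes the cysteinyl leukotrienes, stayed at or under 0.277 in all 6 libraries.

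Lta4h, which makes leukotriene B4, had the smallest standard error of these genes. It was at 36.5, 57.0 and 29.3 in libraries labelled cKO and 38.4, 32.8 and 37.9 in those labelled control, a log2 difference of 0.12 (SE 0.38), or -0.22 without both libraries numbered 2. The epidermal lipoxygenase genes Alox12b and Aloxe3, neighbours on chromosome 11 that serve the skin barrier, were low, with means of 6.72 ± 5.64 and 5.52 ± 3.88 in libraries labelled cKO, and 4.20 ± 3.63 and 2.59 ± 1.24 in those labelled control (SD, n = 3 each). Alox8, an arachidonate lipoxygenase of mouse skin, reached at most 2.74. Alox12, the platelet-type enzyme, and Alox15 did not reach the test, with highest values of 2.21 and 0.778, and Alox12e had no reads. Microglia and macrophage markers, the cells known for the leukotriene pathway, were low throughout. The 18 genes summed to 55.0 to 101 in libraries labelled cKO and 68.2 to 119 in those labelled control, and none of the 18 was at 0 in all 6. Labelled cKO replicate 2, the library highest in Alox5, had a sum of 89.3, below those of 3 other libraries, and reads of 9 of the 18 genes, the fewest of the 6. The part of these cells in the Alox5 values was not tested.

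Ptgr1, which inactivates leukotriene B4 and reduces oxidised prostaglandins, was at 3.45, 6.46 and 2.99 in libraries labelled cKO and 3.13, 0.588 and 0.389 in libraries labelled control. Control replicates 2 and 3 were the lowest of the 6, and control replicate 1 lay inside the range labelled cKO. Its log2 difference was 1.29 (SE 0.70). Ptgr2, which reduces the 15-oxo form of prostaglandin E2, was at 46.3, 34.4 and 24.2 in libraries labelled cKO and 35.4, 5.74 and 18.4 in libraries labelled control, with a log2 difference of 1.05 (SE 0.61). Without control replicate 2 it was 0.39, and without control replicate 1 it was 1.61. The 2 groups overlapped in both genes. A transcript on the opposite strand covers 32.0% of the annotated exon bases of Ptgr2, and whether the counting used strand is not known here.

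Of the elongases, which add 2 carbons at a time to fatty acids, Elovl2 was the only tested member of all 42 whose groups did not overlap. Elovl2, which lengthens polyunsaturated chains towards docosahexaenoate, was at 4.80, 8.28 and 6.10 in libraries labelled cKO, against 1.29, 2.21 and 3.33 in libraries labelled control. Every library labelled cKO was above every library labelled control. The log2 difference was 1.20 (SE 0.62, adjusted p = 0.9996 in limma). Over all tested genes 4.70% had groups that did not overlap, with cKO above in 2.45% and below in 2.26%, so 1 of 42 members is close to the background. Astrocytes are a known site of Elovl2 expression. The 16 astrocyte markers, all tested, summed to 2012 to 3598 in libraries labelled cKO and 1950 to 2643 in those labelled control. Of the 16, 15 had a fitted difference above 0 and 1 below, where 48.0% of all tested genes were above 0. Their median log2 difference was 0.56, and 0 passed the adjusted threshold. Labelled cKO replicate 2 had the highest sum and the highest Elovl2 value. The part of astrocyte content was not tested.

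The other 5 tested elongases had fitted differences below 0, each smaller than its standard error, and groups that overlapped. Elovl7, which acts on saturated very long chains, was at 279, 99.1 and 57.6 in libraries labelled cKO and 183, 148 and 104 in libraries labelled control, a log2 difference of -0.27 (SE 0.51). The highest and the lowest library were both labelled cKO. Elovl5, which lengthens polyunsaturated chains in the arachidonate route, was at 168, 84.2 and 57.1 in libraries labelled cKO and 179.7, 80.0 and 139 in libraries labelled control (log2 difference -0.43, SE 0.45). Leaving out 1 library at a time gave -0.85 without labelled cKO replicate 1 and -0.081 without labelled cKO replicate 3 as the ends of the range. Elovl6, which lengthens palmitate, was at 211, 110.2 and 80.0 in libraries labelled cKO and 196, 103 and 115 in libraries labelled control (log2 difference -0.10, SE 0.41). In Elovl5, Elovl6 and Elovl7 replicate 1 of each label gave the 2 highest values, and labelled cKO replicate 3 the lowest.

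The same libraries stood at the ends of the oligodendrocyte marker sum. That sum was 47659, 28355 and 15754 in labelled cKO replicates 1 to 3, against 38852, 28186 and 33865 in labelled control replicates 1 to 3. All 20 markers had reads. The part of oligodendrocyte content in the elongase values was not tested. Elovl1, which makes the saturated and monounsaturated very long chains of sphingolipids, did not follow that order. It was at 83.2, 84.7 and 54.1 in libraries labelled cKO and 74.8, 45.7 and 118 in libraries labelled control, highest in control replicate 3. Elovl4, which makes the longest chains known in neurons and retina, was at 26.2, 18.8 and 68.1 in libraries labelled cKO and 35.0, 37.1 and 40.1 in libraries labelled control. Its highest value was in labelled cKO replicate 3, the library with the highest pan-neuronal sum, 9227, and its lowest in labelled cKO replicate 2, which had the next highest sum, 5715. Elovl3 had reads in control replicate 3 alone, at 0.500.

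**Figure D2:**
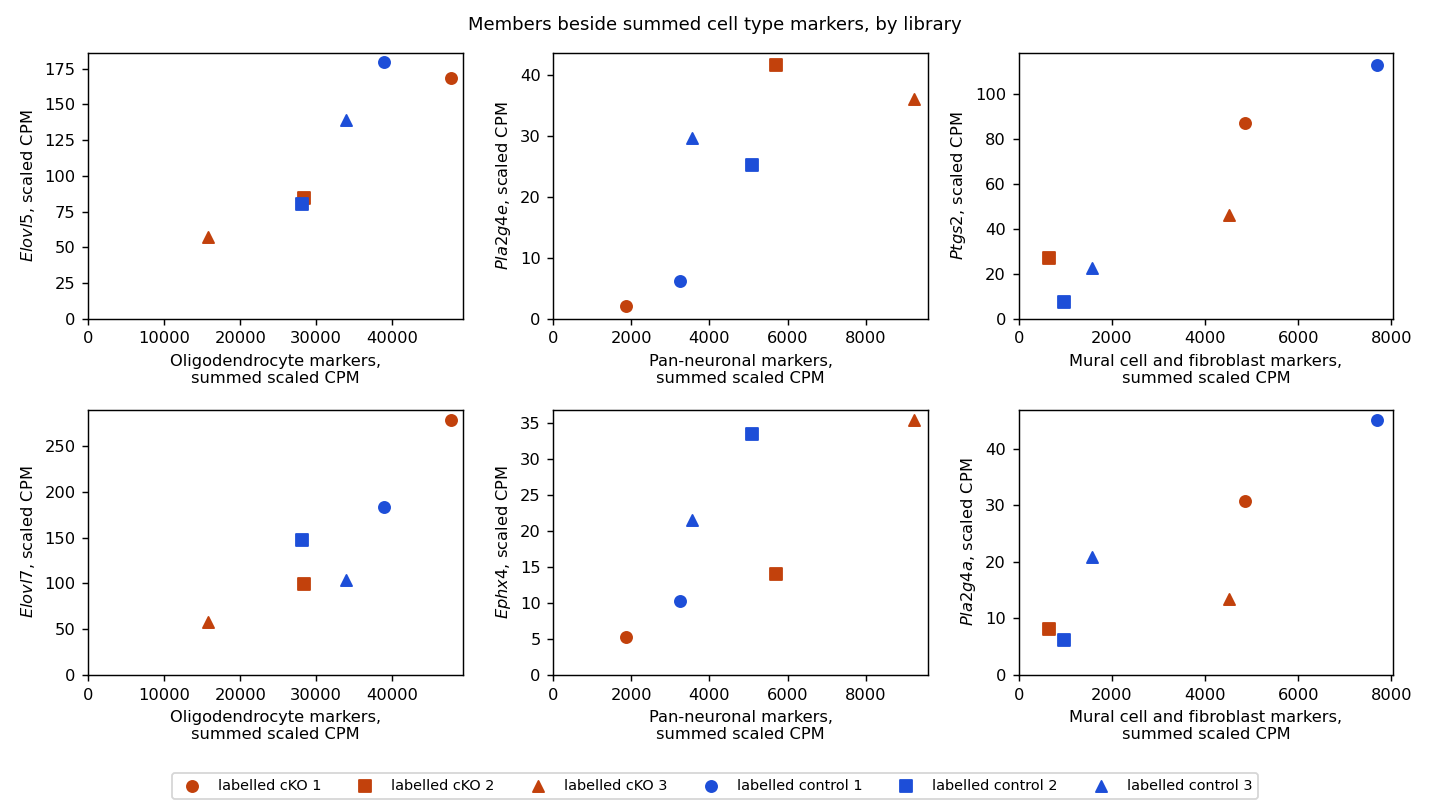
Scaled CPM of 6 members on the vertical axes against the summed scaled CPM of oligodendrocyte, pan-neuronal, and mural cell and fibroblast markers on the horizontal axes, with 1 point per library. Elovl5 and Elovl7 were lowest in labelled cKO replicate 3, which had the lowest oligodendrocyte sum, and Pla2g4e and Ephx4 were lowest in labelled cKO replicate 1, which had the lowest pan-neuronal sum.

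Fads1 was the member with the smallest error, while Fads2 was set apart by 1 library. Fads1, which carries out the last desaturation on the way to arachidonate, was at 87.1, 64.9 and 81.5 in libraries labelled cKO and 88.4, 107 and 75.7 in libraries labelled control. The log2 difference was -0.21 (SE 0.30). Fads2, which carries out the first desaturation of that route, was at 32.6, 2.83 and 43.2 in libraries labelled cKO and 34.0, 38.8 and 27.9 in libraries labelled control. Labelled cKO replicate 2 held 28 reads of this gene, and the other 5 libraries stood between 27.9 and 43.2. The log2 difference of -0.94 (SE 0.80) became 0.17 without that library. Fads1, Fads2 and Fads3 lie in a cluster on chromosome 19, yet Fads1 in the same library was 64.9, lower than in the other 5 by less than the span among them. Fads3, whose product acts on sphingoid bases and other acyl chains, was at 17.5 ± 6.02 in libraries labelled cKO and 14.0 ± 6.72 in those labelled control (SD, n = 3 each). Fads6, a relative of unsettled function, was at 8.24 ± 2.52 in libraries labelled cKO and 6.32 ± 4.80 in libraries labelled control.

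Among phospholipases A2, 9 of 11 secreted enzymes and 4 of 6 cytosolic calcium-dependent ones did not reach the test, and all 4 others did. Pla2g16, a calcium-independent phospholipase and acyltransferase known from adipocytes, had the most negative difference of these genes. It was at 88.5, 10.8 and 15.6 in libraries labelled cKO and 64.8, 50.9 and 30.1 in libraries labelled control, a log2 difference of -0.87 (SE 0.69). Labelled cKO replicates 2 and 3 were the 2 lowest libraries and labelled cKO replicate 1 was the highest, so the groups overlapped. Without labelled cKO replicate 1 the log2 difference was -1.76 (adjusted p = 0.735 in limma), without labelled cKO replicate 2 it was -0.30 and without labelled cKO replicate 3 it was -0.54. With edgeR on all 6 libraries it was -0.34.

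Pla2g4a encodes the cytosolic calcium-dependent enzyme that prefers arachidonate and supplies the cyclooxygenases. It was at 30.7, 8.08 and 13.3 in libraries labelled cKO and 45.0, 6.25 and 20.8 in libraries labelled control, a log2 difference of -0.27 (SE 0.73). Pla2g4e, whose product makes N-acyl phosphatidylethanolamines, the precursors of endocannabinoid-like amides, was at 2.06, 41.6 and 36.1 in libraries labelled cKO and 6.27, 25.3 and 29.7 in libraries labelled control. Replicate 1 of each label was low and the other 4 libraries were at 25.3 or above. The pan-neuronal marker sum was 1873, 5715 and 9227 in labelled cKO replicates 1 to 3, against 3257, 5079 and 3544 in labelled control replicates 1 to 3, lowest in the same 2 libraries. All 18 markers had reads, and the part of neuronal content was not tested. The log2 difference of Pla2g4e was -0.09 (SE 0.98), and its sign changed with edgeR, at 0.38. Pla2g4f, of the same family, was below the filter and was not tested, but its groups did not overlap. It was at 0.816, 9.49 and 0.842 in libraries labelled cKO and 0.553, 0 and 0 in those labelled control. The reads were 17, 94 and 20 against 6, 0 and 0, so the high value came from 1 library, labelled cKO replicate 2. Pla2g4f was singled out after its values were seen, and 4.70% of all tested genes had groups that did not overlap. Pla2g4b, Pla2g4c and Pla2g4d reached at most 0.553, 3.13 and 1.10.

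Pla2g6, the calcium-independent enzyme whose loss causes an infantile neuroaxonal dystrophy in humans, was at 24.4, 17.4 and 13.7 in libraries labelled cKO and 17.7, 7.94 and 23.3 in libraries labelled control. Pla2g15, the lysosomal enzyme, was at 10.6, 15.1 and 14.6 in libraries labelled cKO and 7.10, 24.1 and 13.5 in libraries labelled control. Pla2g7, which breaks down platelet-activating factor, was at 8.68 ± 3.13 in libraries labelled cKO and 8.86 ± 2.77 in libraries labelled control (SD, n = 3 each). The fitted log2 differences of Pla2g6, Pla2g15 and Pla2g7 were 0.25, -0.01 and -0.05, each within its SE of 0.53, 0.56 and 0.58. Of the secreted enzymes, Pla2g12a was at 21.1, 6.67 and 9.81 in libraries labelled cKO and 10.2, 9.71 and 20.9 in libraries labelled control. Pla2g3 was at 6.67, 13.3 and 5.18 in libraries labelled cKO and 4.98, 3.24 and 6.56 in libraries labelled control, with the highest value in labelled cKO replicate 2. Both had groups that overlapped. Pla2g1b, the pancreatic-type enzyme, was at 6.62 in control replicate 2 and at or under 0.167 in the other 5, and Pla2g2d was at 4.49 in control replicate 2 and at or under 0.295 elsewhere. Pla2g2c, Pla2g2e, Pla2g2f, Pla2g5, Pla2g10 and Pla2g12b stayed at or under 0.737 in every library, and Pla2g2a and Pla2g10os had no reads in any, below floors of 0.126 to 0.303 that 3 reads would give.

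**Figure D3:**
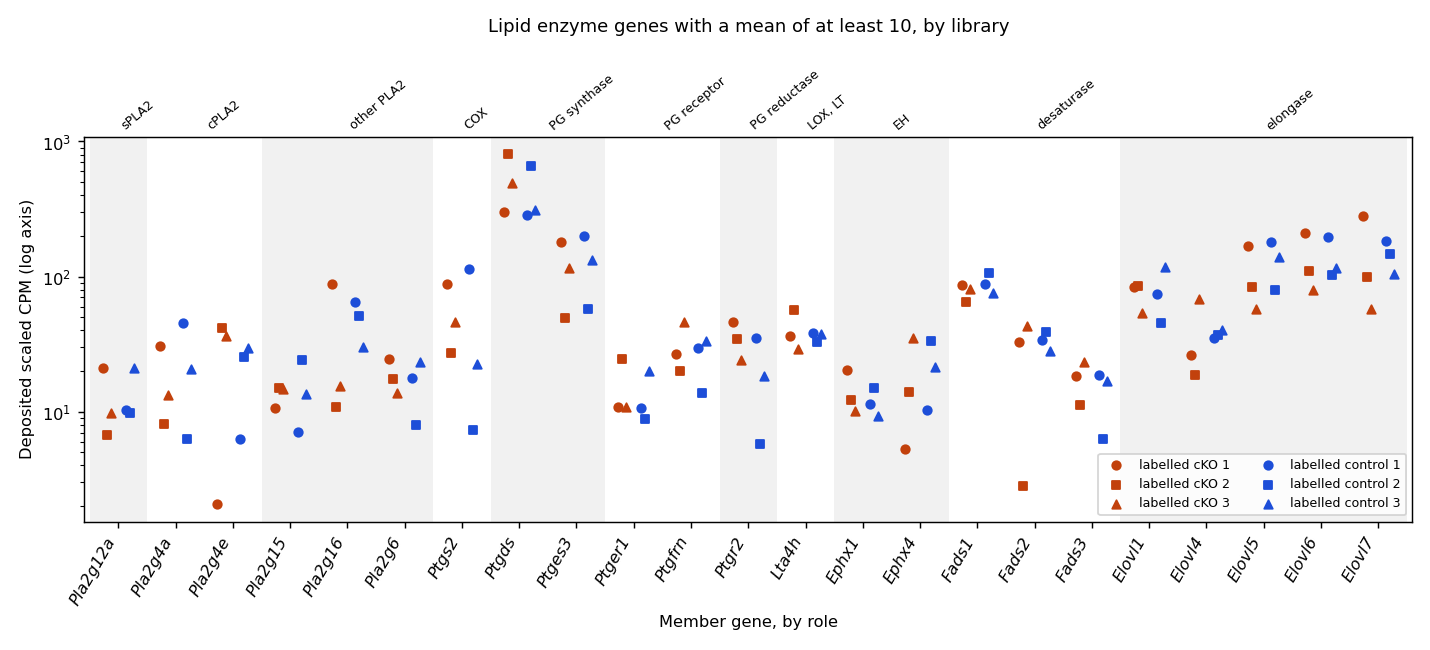
Scaled CPM on a log axis for the 23 tested members with a mean of at least 10, with 1 point per library, libraries labelled cKO left of those labelled control in each gene. In 23 of the 23 genes the ranges of the groups overlap, and Fads2 has 1 library, labelled cKO replicate 2 at 2.83, far below the rest.

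Ptgs2, the inducible cyclooxygenase that neurons make on synaptic activity, had overlapping groups with a wide spread. It was at 87.4, 27.2 and 46.1 in libraries labelled cKO and 113, 7.36 and 22.4 in libraries labelled control. The highest and the lowest library were both labelled control. The log2 difference was 0.80 (SE 0.82), 1.81 without control replicate 1 and -0.079 without control replicate 2, and with edgeR on all 6 it was 0.17. Mural cell and fibroblast markers, 17 genes of which 15 had reads in labelled cKO replicate 2 and all 17 in each other library, summed to 4853, 653 and 4519 in labelled cKO replicates 1 to 3 and to 7685, 978 and 1581 in labelled control replicates 1 to 3. The 3 libraries highest in Ptgs2 were the 3 highest in that sum, and the part of these cells was not tested. Pla2g4a, its neighbour on chromosome 1, was also highest in replicate 1 of each label. Ptgs1, the constitutive form, was low, with means of 4.57 ± 1.63 in libraries labelled cKO and 6.15 ± 5.69 in libraries labelled control (SD, n = 3 each), and was highest at 12.7 in control replicate 2.

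Ptgds was the most abundant member, per exon length as well as in total. It encodes the lipocalin-type prostaglandin D synthase, known in brain from oligodendrocytes, leptomeninges and choroid plexus. Its level per kilobase of annotated exon averaged 288 scaled CPM over the 6 libraries, against 55.1 for Ptges3, the next member, 36.2 for Elovl7 and 33.5 for Elovl5. It was at 301, 806 and 491 in libraries labelled cKO and 284, 659 and 312 in libraries labelled control. Replicate 2 of each label was the highest of its group, and the groups overlapped. The log2 difference was 0.34 (SE 0.45). The 11 leptomeningeal markers, 7 of them tested, summed to 173, 49.5 and 139 in labelled cKO replicates 1 to 3. In labelled control replicates 1 to 3 they summed to 188, 72.9 and 61.1. The 12 ependymal and choroid plexus markers, 7 of them tested and Tmem212 at 0, summed to 29.2, 51.4 and 34.3 in labelled cKO replicates 1 to 3. In labelled control replicates 1 to 3 they summed to 26.2, 13.7 and 15.1. The oligodendrocyte sum was 47659, 28355 and 15754 in labelled cKO replicates 1 to 3, against 38852, 28186 and 33865 in labelled control. The part of these cells in the Ptgds level was not tested.

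Ptges, Ptges2 and Ptges3 carry the name of prostaglandin E synthase. Ptges, the inducible microsomal enzyme that works with Ptgs2, was at 5.23, 0.303 and 19.5 in libraries labelled cKO and 13.4, 0.0736 and 3.39 in libraries labelled control. It had the largest error of any member, with a log2 difference of 0.43 (SE 1.15). Replicate 2 of each label had 3 reads labelled cKO and 1 read labelled control. Ptges2, a second membrane-associated form, was at 4.56, 12.4 and 11.1 in libraries labelled cKO and 6.54, 11.4 and 13.3 in libraries labelled control. Ptges3, the co-chaperone p23 of Hsp90, was at 179, 49.4 and 115 in libraries labelled cKO and 198, 57.2 and 133 in libraries labelled control, lowest in replicate 2 of each label. Its log2 difference was -0.19 (SE 0.54). Ptges3l, its relative, reached at most 1.63. Ptgis, the prostacyclin synthase of vascular cells, was at 4.03, 0 and 4.55 in libraries labelled cKO and 1.38, 3.53 and 1.67 in libraries labelled control, with a log2 difference of -0.02 (SE 0.81).

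Prostanoid receptors were low, and 4 of the 9 receptor and binding protein genes did not reach the test. Ptger1, the prostaglandin E2 receptor that raises calcium, was at 10.8, 24.3 and 10.9 in libraries labelled cKO and 10.7, 8.90 and 19.8 in libraries labelled control. Its level is uncertain, since whether the counting used strand is not known here. Ptgir, the prostacyclin receptor, was at 6.62, 12.02 and 3.91 in libraries labelled cKO and 5.81, 3.46 and 3.11 in libraries labelled control, a log2 difference of 0.66 (SE 0.64). Ptgfrn, a membrane protein that binds tetraspanins and dampens ligand binding to the prostaglandin F receptor, was at 26.7, 20.1 and 45.8 in libraries labelled cKO and 29.7, 13.8 and 33.4 in libraries labelled control. Its log2 difference was 0.27 (SE 0.49). Ptger4 and Ptgdr2, receptors for prostaglandins E2 and D2, reached at most 2.27 and 2.39, and 39.0% of the exon bases of Ptgdr2 are shared with Ccdc86 on the opposite strand. Ptger2, Ptger3, Ptgdr and Ptgfr were below the filter, with highest values of 0.500, 4.17, 1.97 and 2.77.

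All 4 epoxide hydrolase genes were tested, 2 with a fitted difference above 0 and 2 below. Ephx4, a brain-expressed relative whose substrate is unsettled, was at 5.33, 14.0 and 35.4 in libraries labelled cKO and 10.3, 33.4 and 21.5 in libraries labelled control. As with Pla2g4e, replicate 1 of each label was the lowest. Its log2 difference was -0.45 (SE 0.69). Ephx1, the microsomal enzyme, was at 20.2, 12.1 and 10.1 in libraries labelled cKO and 11.4, 15.01 and 9.33 in libraries labelled control. Ephx2, the soluble enzyme that removes the epoxides of arachidonate, was at 2.84 ± 1.22 in libraries labelled cKO and 4.69 ± 1.67 in libraries labelled control (SD, n = 3 each), a log2 difference of -0.57 (SE 0.64). Ephx3 was at 3.84, 0 and 4.55 in libraries labelled cKO and 2.49, 0.0736 and 2.94 in libraries labelled control, lowest in replicate 2 of each label.

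**Figure D4:**
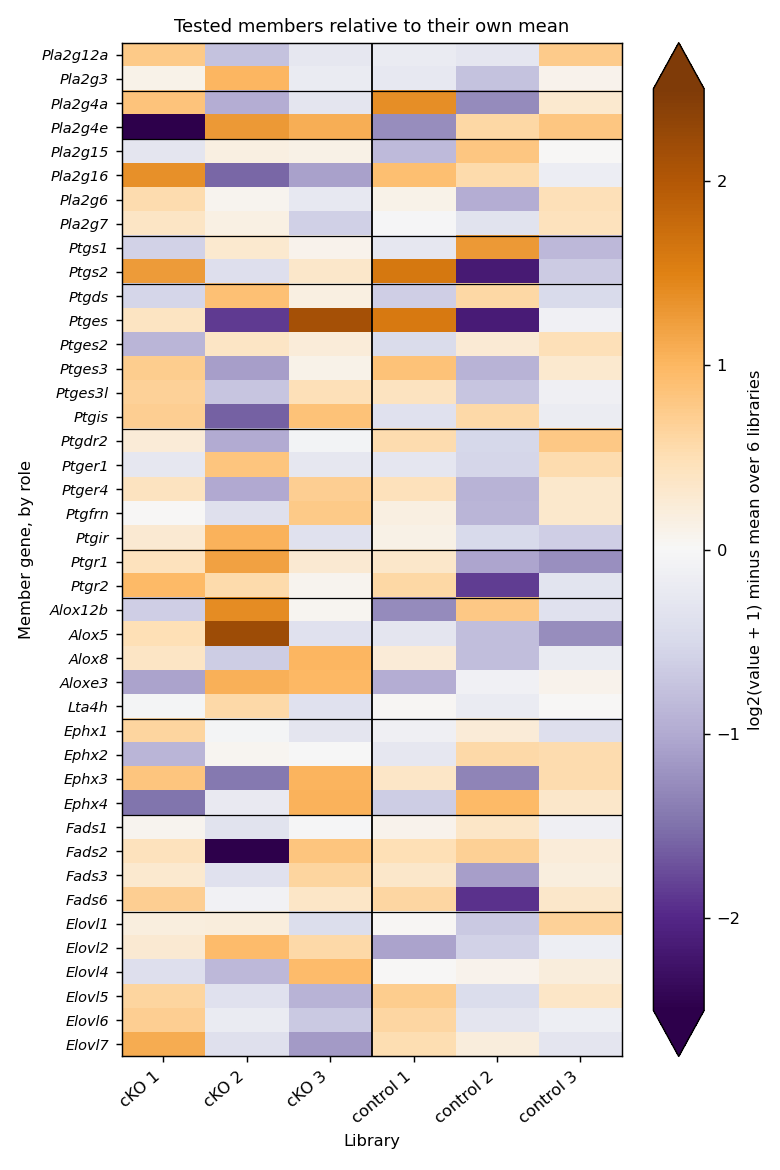
Each tested member's log2(value + 1) minus its mean over the 6 libraries, with members in rows by role, libraries labelled cKO on the left and those labelled control on the right, and colours capped at 2.5 either way. Labelled cKO replicate 2 is the highest library for 11 of the 42 members and the lowest for 11, and labelled control replicate 2 is the lowest for 12.

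The spread between libraries of the members was near that of all genes. Among tested members the range between the highest and the lowest library had a median of 1.78 on the log2(value + 1) scale, against 1.62 over all tested genes. Labelled cKO replicates 1, 2 and 3 gave the highest value of 9, 11 and 10 of the 42 members, and of 16.4%, 23.8% and 18.2% of all tested genes. Each library labelled control gave the highest value of 4 members, and replicates 1, 2 and 3 of 11.3%, 17.4% and 12.8% of all tested genes. Labelled control replicate 2 gave the lowest value of 12 members, or of 19.0% of all tested genes, and labelled cKO replicate 2 of 11 members, or of 34.3% of all tested genes.

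Other genes of the same pathways, in 6 lists that share no gene with the members, gave no call either. Of 26 tested genes of phospholipid remodelling, which include acyl-CoA synthetases, acyltransferases, other phospholipases and the phospholipase A2 receptor gene Pla2r1, 17 had a fitted difference above 0 and 9 below, with a median log2 difference of 0.07. Acsbg1, an acyl-CoA synthetase also held in the astrocyte marker list, was at 16.9, 25.2 and 13.5 in libraries labelled cKO and 16.04, 14.4 and 6.28 in libraries labelled control, with groups that overlapped. Lpcat2, which makes platelet-activating factor, was at 21.3 ± 21.3 in libraries labelled cKO and 26.4 ± 4.76 in libraries labelled control (SD, n = 3 each). Of 16 tested endocannabinoid and lipase genes, 11 were above 0 and 5 below, with a median of 0.16. Mgll, which frees arachidonate from the endocannabinoid 2-arachidonoylglycerol, was at 54.3, 78.0 and 64.0 in libraries labelled cKO and 33.3, 67.1 and 27.9 in libraries labelled control. Faah, which breaks down anandamide, was at 77.8 ± 55.1 in libraries labelled cKO and 39.6 ± 17.5 in libraries labelled control (SD, n = 3 each). Both had groups that overlapped.

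Of 18 tested genes for other prostanoid and leukotriene enzymes, transporters and receptors, 11 were above 0 and 7 below, with a median log2 difference of 0.22. Slco2a1, the prostaglandin uptake transporter, was at 1.39, 0.404 and 3.45 in libraries labelled cKO and 5.16, 3.02 and 20.9 in libraries labelled control. Its log2 difference was -1.73 (SE 0.81), and the highest library, control replicate 3, was far above the other 2 of its group. Hpgds, the haematopoietic prostaglandin D synthase, was at 8.63 ± 7.95 in libraries labelled cKO and 1.67 ± 1.76 in libraries labelled control (SD, n = 3 each). Like Alox5, it was highest in labelled cKO replicate 2, and the groups overlapped. Of 12 tested genes for cytochrome P450 enzymes and their reductase, 5 were above 0 and 7 below, with a median log2 difference of -0.35. Cyp2j12, of a fatty acid oxygenase family with close paralogs, was at 46.9, 0 and 3.91 in libraries labelled cKO and 26.4, 29.3 and 17.6 in libraries labelled control. Cyp4f13, of another such family, was at 18.0, 0.202 and 5.30 in libraries labelled cKO and 14.7, 19.9 and 7.78 in libraries labelled control. In both the low values were in labelled cKO replicates 2 and 3.

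Of 22 tested partners of fatty acid synthesis, desaturation and elongation, 12 were above 0 and 10 below, with a median log2 difference of 0.05. Scd1, the stearoyl-CoA desaturase that makes oleate, was at 157, 210.1 and 123 in libraries labelled cKO and 222, 341 and 251 in libraries labelled control. Every library labelled cKO was below every library labelled control. The log2 difference was -0.74 (SE 0.32, adjusted p = 0.9996 in limma), so it did not pass. Hacd4, a dehydratase of the elongation cycle, was at 10.96 ± 10.4 in libraries labelled cKO and 2.06 ± 2.32 in libraries labelled control (SD, n = 3 each), with groups that overlapped. Of 26 tested genes of fatty acid binding, uptake and oxidation, 11 were above 0 and 15 below, with a median of -0.05. Acadl, a mitochondrial acyl-CoA dehydrogenase, was at 43.4 ± 26.2 in libraries labelled cKO and 77.5 ± 32.2 in libraries labelled control, and Acox3, a peroxisomal oxidase, at 34.0 ± 8.96 in libraries labelled cKO and 20.6 ± 4.33 in libraries labelled control (SD, n = 3 each). The groups of Acox3 did not overlap, and its log2 difference was 0.69 (SE 0.41).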

How the data were processed

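RNA-seq of sorted cells (Thy1 positive and negative for ACSA2, CD31, CD45 and O4, after 75 minutes of pronase, per the labels' protocols) gave 6 libraries. Trimmomatic, HISAT2, featureCounts, edgeR and mm10 are named in the submitters' processing notes, with no versions; strand setting and annotation: not given in the sources used here. The authors deposited a signal, read counts scaled per library. Whole reads were recovered (100% of values within 0.001 of a whole number), and TMM factors computed from them left the values unchanged. The design had assumed plain CPM; its test was kept. With its mean-variance trend, limma 3.58.1 (R 4.3.3) was fitted to log2(value + 1) of the 14796 genes with at least 1 in at least 3 libraries, with Benjamini-Hochberg adjustment over all of them; log2 differences are labelled cKO minus labelled control and understate low genes. The 23 tested members with a mean of at least 10, and any with an unadjusted p under 0.05 or groups that did not overlap, were to be given in every library, with 2 genes per pathway list by smallest p. Exon lengths and overlaps are from the GENCODE mouse annotation for mm10. As alternatives, the pseudocount was 0.1 or 5, the filter was dropped or set at 5, and scaling used median-of-ratios or TMM factors; a replicate block, fits without single libraries, and edgeR 4.0.16 and DESeq2 1.42.0 on recovered reads were also run. Members and lists were chosen with earlier results of these data known. Only the main limma fit was tested on simulated data, and the alternatives were not. There it called 2 of 50 genes set to differ 2-fold and 20 of 48 set to differ 4-fold. Floors cover counting error only, as duplicate reads of 1 molecule are not marked.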

Additional observations from a re-analysis of the deposited data

How the results depend on the processing

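No member passed an adjusted p under 0.05 in any alternative, the lowest adjusted p of any member being 0.735, and 14 of the 42 tested members and 12 of 12 named pathway genes kept their direction in every alternative. Over all genes limma called 0 in each setting and edgeR 0, while DESeq2 called 1 lower. In each alternative 0 genes of the pathway lists were called. The direction changed in at least 1 alternative for 28 of the 42 members, Fads2, Ptgs2 and Fads6 among them, and the cause was not tested. With a pseudocount of 5 the log2 difference was 0.064 for Pla2g4e and 0.083 for Ptgis, and with 0.1 it was 0.0040 for Pla2g15 and -0.095 for Ptger4. With edgeR it was 0.38 for Pla2g4e, 0.38 for Ptgis, 0.0083 for Elovl4 and 0.0017 for Elovl7, and with DESeq2 0.36 for Pla2g4e and 0.34 for Ptgis. Without both libraries numbered 2 it was 0.31 for Pla2g15, -0.14 for Pla2g6, 0.32 for Ptgs1, 1.07 for Ptgis, -0.40 for Ptger1, -0.22 for Lta4h, 0.042 for Fads1, 0.28 for Fads2 and 0.17 for Elovl4. Median-of-ratios factors changed no direction. TMM factors, no filter, a filter at 5 and the replicate block left the fitted differences as they were, so they could not change a direction. The filter at 5 kept 29 members.

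Leaving out each library in turn changed the direction of 27 of the 42 members. The lowest and highest log2 differences were Pla2g12a -0.60 to 0.16, Pla2g4a -0.98 to 0.35, Pla2g4e -0.76 to 1.14, Pla2g15 -0.42 to 0.40, Pla2g6 -0.17 to 0.55, Pla2g7 -0.25 to 0.24, Ptgs1 -0.57 to 0.50, Ptgs2 -0.079 to 1.81 and Ptgds -0.013 to 0.72. They were Ptges -0.53 to 1.47, Ptges2 -0.46 to 0.21, Ptges3 -0.68 to 0.32, Ptgis -0.45 to 0.79, Ptger1 -0.18 to 0.50, Ptger4 -0.35 to 0.60, Ptgfrn -0.11 to 0.53, Lta4h -0.15 to 0.32 and Ephx1 -0.078 to 0.39. For the others they were Ephx3 -0.31 to 1.08, Ephx4 -1.08 to 0.18, Fads2 -1.60 to 0.17, Fads3 -0.077 to 0.65, Fads6 -0.15 to 1.12, Elovl1 -0.37 to 0.31, Elovl4 -0.72 to 0.18, Elovl6 -0.49 to 0.20 and Elovl7 -0.89 to 0.23.

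With replicate number as a block limma again called 0 members and 0 genes, with 110 genes higher and 197 lower at an unadjusted p under 0.05, against 50 and 76 without it. The numbers were not taken to pair the libraries, since the correlation of deviations from the group means was 0.49, 0.30 and 0.03 for numbers 1, 2 and 3, although each library correlated best with the other library of its own number, a hint from the data and not the design. Depth and 3 libraries a group limit these tests: a p that misses the threshold does not show that levels were alike.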
